A study of Mus musculus with 5 samples.

Results

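The genes described here are Myc and 33 genes that make ribosomes, 34 in all, taken as a named list and read over time in cultured cartilage cells. Of these 34 genes, 33 had at least 1 probe set annotated to that gene alone, 68 probe sets in all, out of 18193 genes with such a probe set and 11075 genes bright enough to be compared. Mrto4, a ribosome assembly factor gene, was matched only by a probe set that also matches pseudogenes and is not analysed here. The cells were primary rib chondrocytes of the FVB mouse strain, isolated at embryonic day 18.5, a strain and age common to every group. They were obtained by enzymatic digestion of rib cages with no sorting step named, grown on gelatin in serum-containing medium with ascorbic acid and beta-glycerophosphate, and RNA was taken on days 2, 6, 9, 12 and 15 of culture. Each day is represented by 1 array, and no untreated or fresh-tissue control is analysed here. Whether the cells of all 5 days stem from one isolate is not given in the labels.

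Ribosomes are assembled in the nucleolus. RNA polymerase I transcribes the precursor of the ribosomal RNAs, small nucleolar ribonucleoproteins (snoRNPs) guide its methylation and pseudouridylation, and large assemblies of processing factors cut and fold it into the 40S and 60S subunits. Growing cells need many of these factors, and the transcription factor Myc, which binds DNA together with its partner Max, is known to activate many of their genes. Chondrocytes, whose main product is secreted matrix, pass through a proliferating state before they enlarge and mature.

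Values are probe-set intensities on a linear scale, which can be compared between days for a probe set but not between probe sets. Every array as deposited had a trimmed mean of 500, so all were on a common scale. Median intensity lay between 106 and 118 over the arrays, and signal near the 3' end of Actb relative to its 5' end, which rises as RNA degrades, between 1.17 and 1.27. All 8 chondrocyte markers examined, among them Col2a1, Acan and Sox9, were above the floor of 73.0 on every array. Their summed intensity was 129101 on day 2 and 54336 on day 15, with a low of 39734 on day 12. The 5 endothelial markers had summed intensities of 173 to 353 and the 4 erythroid markers 26.8 to 307, with at least 3 of 5 and 2 of 4 below the floor on each array. Unless stated otherwise a gene is given by its brightest probe set, and with 1 array per day no difference between a pair of days carries a replicate error. The only guide to error was the spread between probe sets of a gene, which are read on the same arrays and so hold no culture or array variation. Over 3013 genes with 2 probe sets bright enough to compare, the SD of a log2 difference between days 15 and 2 from 1 probe set was 0.60.

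All 33 genes were lower on day 15 than on day 2. The difference reached 2-fold in 28 of them, among which Nop56, a core snoRNP protein, was 6.29-fold lower and Heatr1, a processome protein, 5.99-fold lower. None of the 33 was at least 2-fold higher. Over all 11075 genes, 5504 were lower on day 15 by any amount. Of the same 11075 genes, 11.6% met the 2-fold threshold for lower values and 16.2% that for higher values. The median log2 difference between day 15 and day 2 was -1.63 over the 33 genes and 0.00 over all genes, and 3.56% of all genes lay below the median of the 33. The middle of the list ran from -1.98 to -1.32 (quartiles), and the whole list from -2.65 to -0.41. Nop56, Heatr1, Utp20, Rrp1b, Polr1a, Wdr43 and Wdr12 were at least 4-fold lower (7 of 33, against 1.79% of all genes). The lowest intensity of any of the 33 genes on any array was 178, above the filter value of 106, so no gene entered the comparison through its day 2 value alone. Centring each array on its median instead moved the median of all genes to 0.14 and that of the list to -1.49, with 27 of 33 at least 2-fold lower. With that centring 32.1% of all 2-fold differences were toward lower values on day 15, against 41.6% otherwise.

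**Figure D1:**
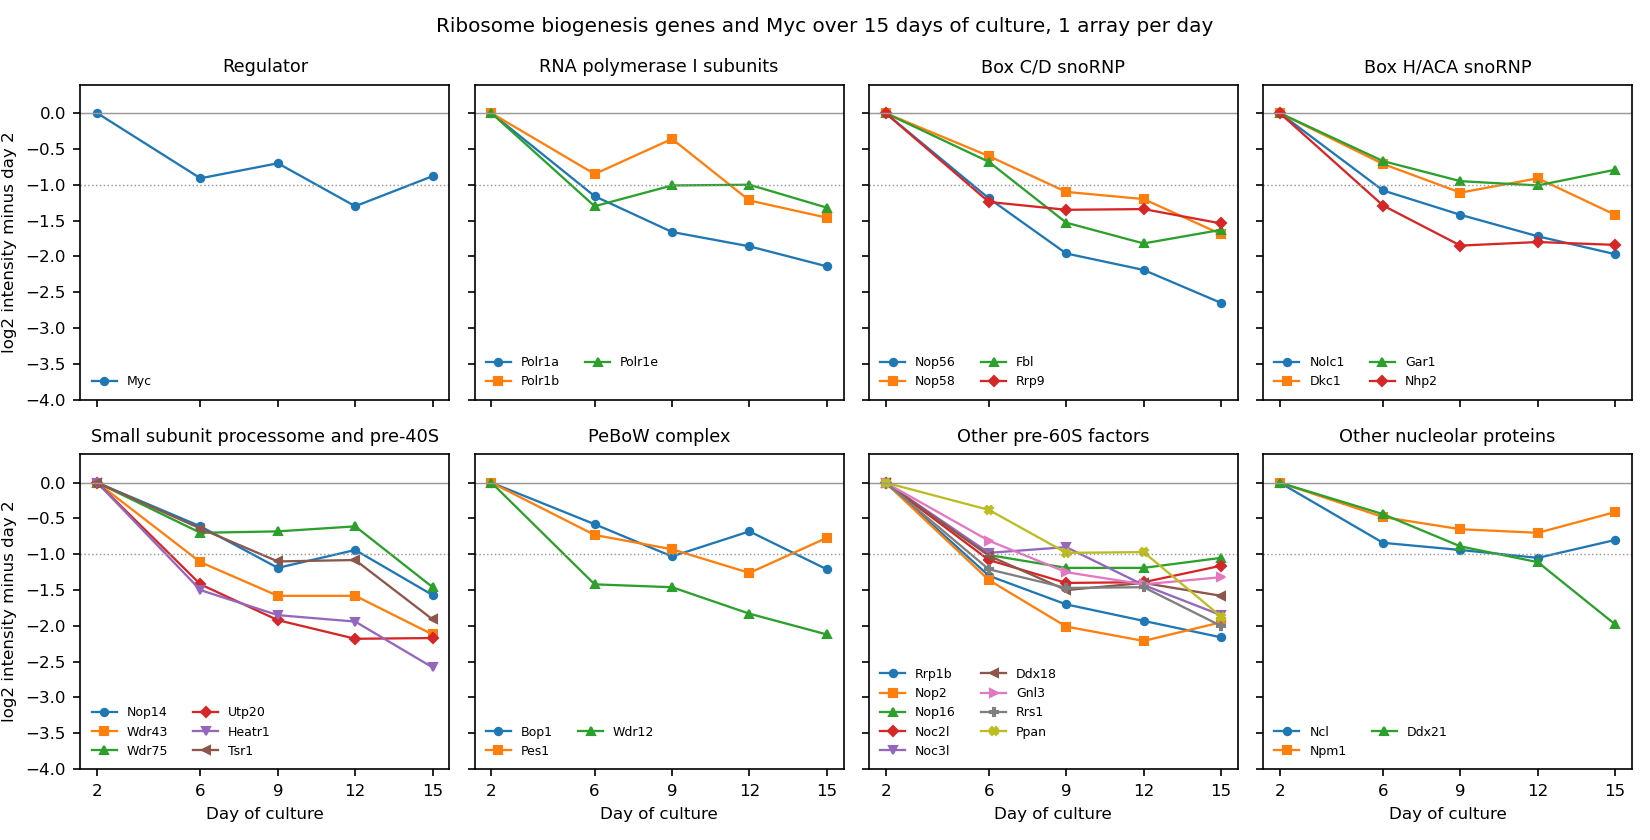
Log2 intensity minus that of day 2 (vertical axis) against day of culture (horizontal axis) for the 33 genes, in 8 panels by role. Each line is the brightest probe set of 1 gene on 5 arrays, the dotted line marks a 2-fold decrease, and every line lies below 0 from day 6 on.

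Myc itself was among the 5 genes under the 2-fold threshold. Its intensity was 1916 on day 2, 1019 on day 6, 1177 on day 9, 777 on day 12 and 1039 on day 15. Day 2 was thus the highest array and day 12 the lowest, and day 15 was 1.84-fold below day 2. The range from highest to lowest was 1.30 on the log2 scale. Its network of partners and antagonists differed from gene to gene. Of 15 measured genes in that list, 4 were at least 2-fold lower on day 15 and 2 were higher by as much, with a median log2 difference of -0.42. The partner gene Max was 2.33-fold lower, at 1213 on day 2 and 521 on day 15, with values of 730, 991 and 1084 on the days between, so it was lowest on day 15. Ruvbl2, a helicase-related chromatin cofactor, was 2.47-fold lower and Fbxw7, the ubiquitin ligase subunit that targets Myc for degradation, 2.30-fold lower. The 2 higher genes encode proteins that compete with Myc for Max. Mxd4 had 484 on day 2, 2004 on day 6, 3626 on day 9, 3919 on day 12 and 2558 on day 15, 5.28-fold higher at the end. Other probe sets of Mxd4 were 3.06-fold and 2.37-fold higher, and another 1.54-fold lower. Mxi1 was 2.89-fold higher, with 484 on day 2, 581 on day 12 and 1398 on day 15, so its difference lay on the day 15 array, and another probe set, below the floor on day 2, was at least 7.64-fold higher. Mnt, another such antagonist, was 1.69-fold higher on day 15 and highest on day 9, at 765 against 176 on day 2.

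Myc with Max binds the E-box CACGTG, a motif that is its own reverse complement. Because all 33 measured genes were lower, their promoters were searched for these letters, in the RefSeq windows of GRCm38.p6 that run from 250 bases before to 50 bases after each annotated start. Of the 34 genes, 29 were matched to a promoter, and Myc, Rrs1, Fbl, Bop1 and Npm1 were not. The motif was present in 5 of 29 genes (17.2%), compared with 12.0% of 8986 genes tested that have a promoter in the table and 8.09% of all 27025 genes in it. Counted by promoter, the motif was in 7.15% of all 32851 promoters. The 5 stretches are shown with the motif in capitals and up to 12 bases on either side, 5′ to 3′ on the strand of the gene.
Nop2: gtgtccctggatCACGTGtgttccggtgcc
Pes1: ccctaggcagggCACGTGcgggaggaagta
Wdr43: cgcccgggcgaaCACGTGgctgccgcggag
Tsr1: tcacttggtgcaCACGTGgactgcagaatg
Utp20: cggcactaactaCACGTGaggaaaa
The Nop2 stretch lies at chr6:125131811-125131840 on the plus strand, with the motif starting 60 bases before the start site. That of Pes1 lies at chr11:3963965-3963994, of Tsr1 at chr11:74898092-74898121 and of Wdr43 at chr17:71616220-71616249, all on the plus strand. Their motifs begin at bases 3, 25 and 18 after the start site, within the transcribed part. The Utp20 stretch lies at chr10:88826765-88826789 on the minus strand, with the motif at base 38, and ends with the window. The 5 genes with the motif did not share a size of difference. Pes1 was 1.70-fold lower on day 15 than on day 2, while the other four were between 3.76-fold and 4.51-fold lower. Genes without the letters in this window included Nop56 and Heatr1, which had the largest differences. Motifs outside the window were not searched.

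All 3 RNA polymerase I subunits among the 34 genes were at least 2-fold lower on day 15. Polr1a, which encodes the largest subunit of the enzyme, had 784, 352, 248, 216 and 178 in order of day. It was lower at every step and 4.42-fold lower by day 15. Other bright probe sets of Polr1a were 2.80-fold and at least 4.99-fold lower. Polr1b, which with Polr1a forms the catalytic core, had 535, 297, 418, 229 and 195. Its day 9 value stood above those of days 6 and 12, and it ended 2.75-fold lower. Polr1e had 794, 322, 393, 398 and 318, so its day 6 value already matched that of day 15, 2.49-fold lower than day 2, and its other probe set was 3.72-fold lower. In the list of further polymerase I subunits and initiation factors, which includes subunits it has in common with other polymerases, 3 of 14 measured genes were at least 2-fold lower and 0 higher. The median of that list was -0.31, and none of its 5 polymerase subunits reached 2-fold. Those 3 were Taf1a at 2.52-fold, Tcof1 at 2.11-fold and Rrn3, an initiation factor, at 2.01-fold lower. At the other end, Polr2f, a subunit common to several polymerases, was level (3693 and 3683), though 2.24-fold higher by a dim probe set. The termination factor Ttf1 was 1.25-fold higher, but 1.65-fold lower by another probe set.

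Box C/D snoRNPs carry out methylation of ribosomal RNA. Nop56, part of their protein core, had the largest difference of the list, with 6329, 2772, 1623, 1383 and 1006 in order of day. It was lower at every step, and a second probe set was 4.47-fold lower. Its paralogue Nop58 took a shallower course, with 4594, 3030, 2140, 1994 and 1422, and ended 3.23-fold lower. Fbl, the methyltransferase fibrillarin, had 9463, 5888, 3277, 2675 and 3058. It was lowest on day 12 and 3.09-fold lower than day 2 on day 15. Rrp9, a protein specific to the U3 snoRNP that guides cleavage of the precursor, had 678, 287, 265, 269 and 234, and most of its 2.90-fold difference was present on day 6.

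Box H/ACA snoRNPs convert uridine to pseudouridine. Dkc1, their catalytic subunit dyskerin, had 3174, 1940, 1474, 1688 and 1185, 2.68-fold lower by day 15. Other Dkc1 probe sets were 5.82-fold and 4.58-fold lower. Nhp2 had 8813, 3609, 2446, 2528 and 2469, reached its low level by day 9 and ended 3.57-fold lower. Gar1 stayed under the threshold, with 3822, 2400, 1972, 1899 and 2206, 1.73-fold lower. The 3 genes encode partners in a common particle, and their differences thus ran from 1.73-fold to 3.57-fold. Nolc1, a nucleolar phosphoprotein that binds these particles, had 2548, 1204, 950, 771 and 649. It was lower at every step and 3.92-fold lower at the end, close to 3.95-fold and 3.66-fold by its other probe sets. Among 10 measured genes for the assembly of snoRNPs, 1 was at least 2-fold lower and 0 higher, with a median of -0.54. That gene was Wrap53, a Cajal body protein, at 2.19-fold. It had 250, 203, 106, 262 and 114 in order of day, so its day 12 value was above that of day 2. Nop10, the remaining core protein of the H/ACA particle, was 1.24-fold lower.

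The small subunit processome is the assembly that forms on the nascent precursor RNA. All 6 of the 34 genes that act in it or in later 40S precursors were at least 2-fold lower. Heatr1 had 2038, 721, 565, 530 and 340, lower at every step, and its other probe sets were 2.67-fold and 2.84-fold lower. Wdr43 had 3042, 1405, 1015, 1021 and 697, which came to 4.36-fold lower. Wdr75 had 2901, 1789, 1807, 1900 and 1057. Heatr1, Wdr43 and Wdr75 belong to the same early-binding subcomplex. Wdr75 was near level from day 6 to day 12 by its brightest probe set and ended 2.74-fold lower. Over those days the brightest probe set of Heatr1 decreased, but its dimmer ones did not steadily do so. They had 109, 112 and 113, and 105, 95.0 and 132. A dimmer probe set of Wdr75 was 1.48-fold lower. Utp20, a very large scaffold protein, had 2072, 775, 548, 457 and 459, 4.51-fold lower. Nop14 had 1392, 910, 611, 723 and 469, 2.97-fold lower. Tsr1, a GTPase-like factor of later 40S precursors, had 3542, 2268, 1655, 1672 and 943, with a lower value on day 15 than on day 12 after a level stretch, and was 3.76-fold lower in all. Of 50 further genes of this stage that were measured, 25 were at least 2-fold lower and 0 higher, with a median of -0.98. Rrp12 led them at 747 on day 2 and below the floor on day 15, at least 10.2-fold lower. Bysl was 5.02-fold lower (3.44-fold by another probe set) and Wdr3 4.15-fold lower. Riok1, Esf1 and Ddx49 were the highest 3 and differed by at most 1.07-fold by their brightest probe sets. Other probe sets of Riok1 ran from 1.47-fold lower to 1.21-fold higher, and a dim one of Ddx49 was at least 1.58-fold lower.

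The 3 genes of the PeBoW complex, which processes the RNAs of the large subunit, were 1.70-fold to 4.35-fold lower by their brightest probe sets. Whether they differed from each other is uncertain, as the probe sets of Wdr12 also differed. Wdr12 had 2750, 1027, 999, 771 and 632 and ended 4.35-fold lower (1.97-fold by another probe set). Bop1 had 1100, 737, 537, 687 and 474, 2.32-fold lower. Pes1 had 2388, 1440, 1257, 998 and 1402, with its lowest value on day 12 and a difference of 1.70-fold on day 15. A dim second probe set of Pes1, at 126 to 197, was near level, with a log2 difference of -0.03.

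The other 60S assembly genes among the 34 were at least 2-fold lower in 9 of 9 measured cases. Nop2, a methyltransferase of the large ribosomal RNA, had 1869, 730, 465, 404 and 484, 3.86-fold lower. Rrp1b had 1126, 456, 347, 295 and 251 and was 4.48-fold lower, or 2.70-fold and 2.49-fold by other probe sets. Rrs1, which helps to bring the 5S RNA particle into the subunit, had 4055, 1757, 1464, 1477 and 1014, just short of the 4-fold threshold. These 3 genes had most of their log2 difference by day 6. Ppan went a different way, with 896, 690, 453, 458 and 246, so that its largest step was the last. Noc3l, a nucleolar assembly factor, had 851, 431, 455, 316 and 236, 3.61-fold lower, and 1.75-fold by a dimmer probe set. Ddx18, an RNA helicase, had 2963, 1465, 1047, 1123 and 990, 2.99-fold lower, and 4.77-fold by another probe set. The GTPase nucleostemin, encoded by Gnl3 and known from proliferating stem cells, had 6435, 3671, 2714, 2407 and 2580, 2.49-fold lower. Noc2l had 727, 344, 276, 278 and 326, 2.23-fold lower. A dimmer probe set of Noc2l was 1.64-fold lower, with 181 on day 9, 149 on day 12 and 142 on day 15. Nop16 had 2401, 1196, 1050, 1050 and 1161, 2.07-fold lower, and its dim second probe set, with 102 on day 2 and 159 on day 15, was the only one of the 68 that was higher on day 15. In the wider list of 60S assembly genes 27 of 50 measured were at least 2-fold lower and 0 higher, with a median of -1.08. Grwd1, a chaperone of a ribosomal protein, was 7.35-fold lower (4.65-fold and 3.60-fold by other probe sets). The giant ATPase gene Mdn1 was 5.75-fold lower and Nle1 4.33-fold lower, while Nsa2, Nsun5 and Nop53 were 1.31-fold, 1.17-fold and 1.06-fold higher. Another probe set of Nop53 was 1.2-fold lower.

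The 3 general nucleolar proteins differed from one another. Npm1 had the smallest difference of the 33 genes. It encodes nucleophosmin, which has roles in assembly, chaperoning and centrosome control, and had 33454, 24002, 21270, 20545 and 25092, 1.33-fold lower on day 15 (1.64-fold by another probe set). Ncl, nucleolin, had 24266, 13591, 12620, 11726 and 13900, 1.75-fold lower. The other 4 probe sets of Ncl had log2 differences from -0.58 to -1.96, so its size of difference is uncertain. Ddx21, a helicase that acts in polymerase I transcription and on snoRNAs, stood apart from both, with 2297, 1695, 1243, 1064 and 582, lower at every step and 3.94-fold lower (8.48-fold by another probe set).

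**Figure D2:**
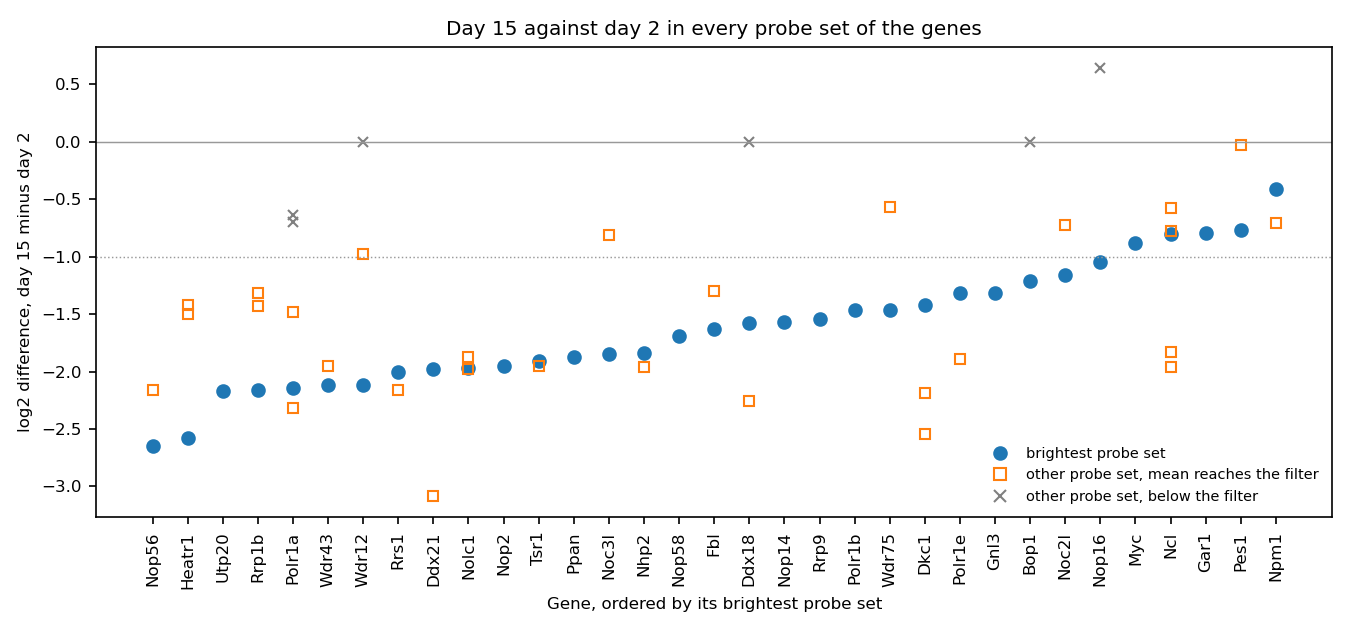
Log2 difference between day 15 and day 2 (vertical axis) for all 68 probe sets of the 33 genes (horizontal axis). Filled circles are the brightest probe set of each gene, squares other probe sets whose mean intensity reached the filter and crosses dimmer ones, and only the dim second probe set of Nop16 lies above 0.

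The direction was common to almost all probe sets. Of 35 probe sets that were not the brightest of their gene, 29 were bright enough to pass the filter, and all 29 were lower on day 15, 21 of them at least 2-fold. Their median log2 difference was -1.83. They read the same genes on the same arrays as the brightest ones, and these shares were not counted over all probe sets. Among the 6 dimmer ones, 2 were lower, 3 were below the floor on both days and the Nop16 probe set was higher. Some of these probe sets can bind related transcripts, and Npm1 has many pseudogenes, so its values are less certain. The 34 genes lie on 16 chromosomes.

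Most of the difference was already present on day 6. All 33 genes were lower on day 6 than on day 2, and 16 of them at least 2-fold, against 5.70% of all genes. The median log2 step was -0.98. Over all genes the median of each step between neighbouring days lay between -0.01 and 0.03. From day 2 to day 6 the log2 decrease was larger than from day 6 to day 15 in 23 of 33 genes, a comparison not counted over all genes. From day 6 to day 9 the median step was -0.39, with 28 genes lower and 0 at least 2-fold lower (4.06% of all genes). From day 9 to day 12 it was -0.09, with 19 lower and 14 higher and again 0 at 2-fold (1.51% of all genes). The median of the list was therefore close to level from day 9 to day 12, while single genes ran from -0.87 for Polr1b to 0.36 for Bop1. Day 2 was the highest of the 5 arrays for 33 of 33 genes, and for 32.2% of all genes. Nop56, Nop58, Nolc1, Wdr12, Rrp1b, Polr1a, Heatr1 and Ddx21 were lower at every step (8 of 33, against 4.59% of all genes). Set against day 6 in place of day 2, day 15 was at least 2-fold lower in 7 genes, with a median of -0.71 and 6.2% of all genes lower, so the count of 28 rests on the day 2 array.

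Between days 12 and 15 the genes of the list went both ways. Of the 33 genes, 22 were lower and 11 higher on day 15, a count not made over all genes. None differed by 2-fold in either direction, where the shares of all genes at that threshold were 3.92% lower and 4.24% higher. The median log2 step was -0.25 over the 33 genes and -0.01 over all genes. The log2 differences were -0.90 for Ppan, -0.87 for Ddx21, -0.85 for Wdr75 and -0.83 for Tsr1. On the other side they were 0.49 for Pes1, 0.42 for Myc, 0.29 for Npm1, 0.26 for Nop2 and 0.25 for Ncl. These differences are of the order of the probe-set SD of 0.60. That SD was computed for days 15 and 2 and not for days 12 and 15, and there is no second array for either day. The median log2 step over these days was -0.63 for the 6 processome and pre-40S genes, among which Utp20 had 0.01. For the 50 further genes of that stage it was only -0.07, so the larger step was not general to the stage. The general nucleolar proteins went both ways, with Ncl and Npm1 higher and Ddx21 lower on day 15.

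With 1 array per day, a straight line of log2 intensity on day was used as the test over the 5 arrays. All 33 slopes were negative. By limma with Benjamini-Hochberg adjustment over all 11075 genes, 0 of 33 genes had a falling trend at an adjusted p of 0.05, as did 0% of all genes. The adjusted p ran from 0.0657 for Nop56, with a slope of -0.200 ± 0.027 (SE) per day on the log2 scale, to 0.425 for Npm1. At an unadjusted p under 0.05 there were 25 of 33 genes, against 12.7% of all genes. Without the day 2 array 13 of 33 were under that unadjusted level, all of them among the 25, against 6.07% of all genes.

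Ribosomal protein genes, whose products are what these factors assemble, had smaller differences. Of 42 measured, 0 reached a 2-fold difference in either direction on day 15, with a median of -0.03. Their median was -0.30 on day 6 and -0.28 on day 12 against day 2. Of these 42 genes, 34 had mean intensities of at least 10000, a division made after their values were seen, with 25274 to 54804 on day 2. Intensities that high may be near the upper end of the array's range, where differences would be understated, and this was not tested. Their median was 0.00, with log2 differences from -0.21 to 0.65. The 8 dimmer genes had a median of -0.23, with 7 lower and a range from -0.99 to 0.05. Npm1 and Ncl, also under 2-fold lower, were likewise above 10000 on every day. Rps25 was the lowest, with 2324 on day 2 and 1169 on day 15, and Fau, which encodes a ubiquitin-like fusion with a 40S protein, the highest at 1.57-fold. Of 78 genes in that list, 35 had no probe set of their own, so it is incompletely covered. The nuclear exosome, the nuclease complex that trims precursor RNAs, was between them, with 4 of 13 genes at least 2-fold lower, 0 higher and a median of -0.82. Its leading genes were Exosc1 at 3.73-fold and the nuclease gene Dis3 at 3.64-fold lower. At the other end C1d, a cofactor of the exosome, was 1.43-fold higher.

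**Figure D3:**
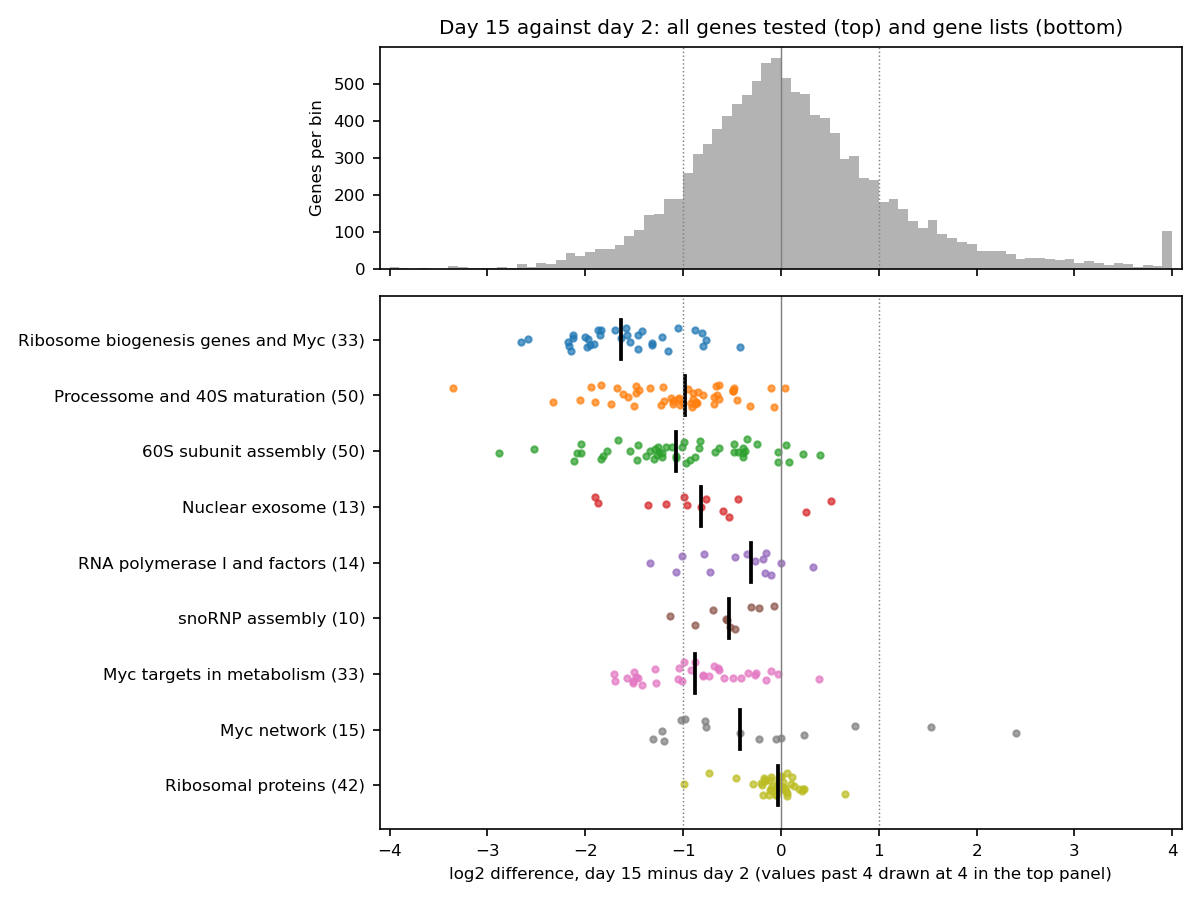
Log2 difference between day 15 and day 2 (horizontal axis) for all 11075 genes as a histogram (top) and for single genes of 9 lists (bottom, measured genes in parentheses, black bars at medians). The 33 measured genes of the ribosome biogenesis and Myc list have a median of -1.63 and the 42 ribosomal protein genes one of -0.03.

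Known Myc targets outside the nucleolus were lower as well. Of 33 measured genes for nucleotide, polyamine and protein metabolism, 14 were at least 2-fold lower on day 15 and 0 higher, with a median of -0.88. The mitochondrial chaperone gene Hspd1 and the import factor gene Timm8a1 were both 3.25-fold lower (Timm8a1 1.95-fold by another probe set), and the spermidine synthase gene Srm was 2.97-fold lower. Ldha, lactate dehydrogenase, had 26526 on day 2, 12212 on day 9 and 34671 on day 15, and so was the only gene of this list above its day 2 value at the end. The letters CACGTG were found in the promoter window of 16 of the 33 genes of this list matched to one (48.5%), a list drawn up from genes known as Myc targets.

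Other gene groups differed between the same days, and their part in the result was not tested. Of 17 proliferation genes 7 were at least 2-fold lower on day 15 and 0 higher, with a median of -0.77. Their median against day 2 was -0.48 on day 6, -1.26 on day 9 and -1.06 on day 12, so they were lowest on day 9 while the ribosome biogenesis list was lowest on day 15. Of the chondrocyte markers 6 of 8 were at least 2-fold lower and 2 higher. The summed intensity of 8 fibroblast markers was 7555 on day 2 and 162137 on day 15, that of 4 osteoblast markers 462 and 41925, and that of 4 adipocyte markers 1684 and 51127. The summed intensity of 5 epithelial markers was 2631 on day 2, 690 on day 6 and 583 on day 15. Most of that difference was Krt18, a keratin, which had 2052, 219 and 103 on those days and was 19.9-fold lower. Krt8 was 2.14-fold lower, while Epcam was 1.32-fold higher, at 233 on day 2 and 307 on day 15. The summed intensity of 6 macrophage markers was 1424 on day 2, 707 on day 6 and 940 on day 15. In RNA from a whole dish, fewer cells of a type and less RNA per cell cannot be told apart.

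**Figure D4:**
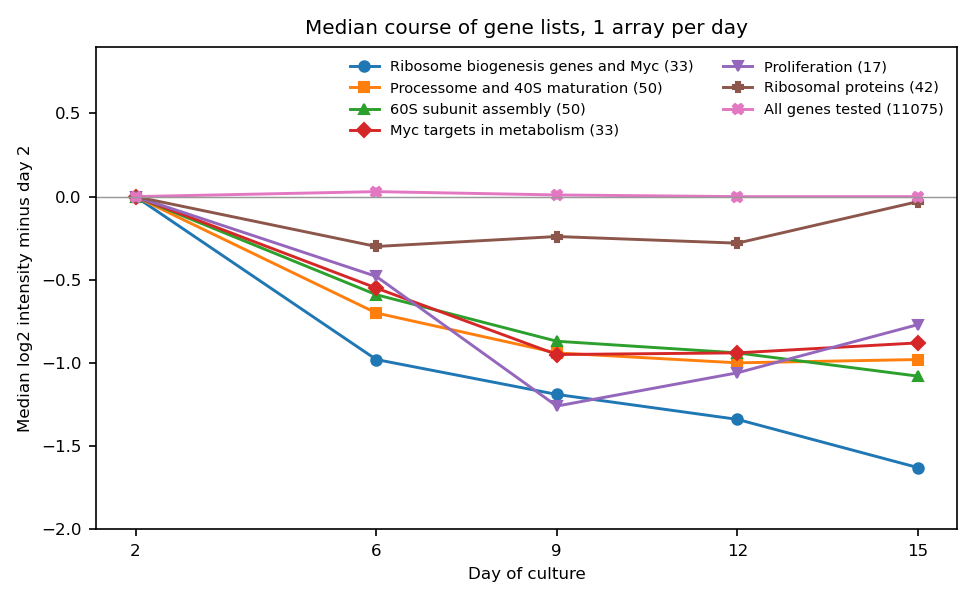
Median log2 intensity minus that of day 2 (vertical axis) against day of culture (horizontal axis) for 6 gene lists and all genes tested, with the number of genes in parentheses and 1 array per day. The ribosome biogenesis list reaches -0.98 on day 6 and -1.63 on day 15, and the proliferation list is lowest on day 9 at -1.26.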

How the data were processed

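The deposited values were probe-set intensities from single-colour arrays of 5 samples, made by the authors with MAS5, as the submitters' processing notes name it. There were 45101 probe sets. The 64 control probe sets were left out, 34945 carried 1 gene symbol, 932 several and 9160 none. Of the single symbols, 34741 were matched to a current symbol in a RefSeq table of GRCm38.p6. Intensities below 73.0, the 40th percentile, were raised to that floor and log2 was taken. Genes were kept where the mean of their brightest probe set reached 106, the median over probe sets.

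A linear trend on day was fitted to all genes in R 4.3.3 by limma 3.58.1, using lmFit followed by eBayes and a two-sided test with 3 residual and 2.83 prior degrees of freedom. The fit was tested on simulated data. The remaining steps ran in Python 3.11.15, pandas 2.3.3 and numpy 2.4.6. Precision is limited by having 5 arrays. The p-values measure spread about a straight line, which may be technical and also includes any curved course over time. The genes, gene lists and tests were chosen with earlier results of these data known. All listed genes are reported, with values on every array for those differing at least 2-fold between any pair of days and for Myc. Npm1, which did not, was added after its values were seen. From each further list the 3 lowest and 3 highest genes were eligible to be named. Alternatives were other scalings, floors, filters, probe-set averaging, baseline days and leaving out each array.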

Additional observations from a re-analysis of the deposited data

How the results depend on the processing

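The direction of the median difference was the same under all 10 alternatives run, from -1.66 with a filter at the 70th percentile to -0.71 for day 15 against day 6. The number of genes at least 2-fold lower was 26 to 28 under the 8 alternatives of scaling, floor, probe set and filter, against 8.7% to 11.9% of all genes. It was 7 (6.2% of all genes) for day 15 against day 6 and 17 (5.6%) for days 12 and 15 against days 2 and 6. No gene of the list was at least 2-fold higher under any of the 10. A falling trend passed the limma adjusted threshold in 1 gene, Nop56, with a pseudocount in place of the floor, as it did in 22 of all 11075 genes. With the filter at the 70th percentile it passed in 8 genes of the list and in 85 of all 7806 genes tested (1.09%). Those 8 were Nop56, Nop58, Nolc1, Polr1a, Noc3l, Ddx21, Ppan and Tsr1, and the cause was not tested in either case. Leaving out each array in turn gave 0 such genes each time. At an unadjusted limma p under 0.05 there were 13 without day 2 (6.07% of all genes) to 28 without day 15 (13.3% of all genes). Of those 28 genes, 22 were among the 25 found with all arrays. With 1 array per day, the day 2 array takes part in every difference given from day 2 and has no replicate check.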
